A study of Mus musculus with 12 samples.

Results

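The response of CD8 T cells to linoleic acid was measured on 6 of the 12 arrays of the series, 3 of cells from linoleic acid culture and 3 of cells from control culture. They were chosen by their titles, which give the sorted cell and the culture. Unsorted mouse splenocytes were kept for 24 h with 50 µM linoleic acid or with none added, CD8+ T cells were sorted afterwards, and their total RNA was hybridized to Affymetrix MoGene-2_0-st arrays, 1 per sample. The labels give no strain, genotype, sex or age, nor whether same-numbered arrays came from 1 spleen or the replicates from separate animals or cultures, so p-values measure the spread between these arrays, which may be technical. Every splenic cell type met the fatty acid together with the T cells, and the sort followed the culture. The title numbers 1 to 3 were used as a second reading that sets each treated array against the control array of its number. The other 6 arrays hold CD4 T cells from the same kinds of culture, and the series as a whole concerns steatohepatitis and the loss of CD4 T cells.

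CD8 T cells are the cytotoxic arm of T cell immunity: they recognize peptides on class I molecules and kill with perforin and granzymes. Linoleic acid is a polyunsaturated dietary fatty acid that cells store in lipid droplets, build into membranes or burn in mitochondria. Carnitine palmitoyltransferase 1 couples long-chain acyl groups to carnitine so that they can enter the mitochondrion, and its liver-type gene Cpt1a is a target of the PPAR nuclear receptors, which bind fatty acids.

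The sorted cells carried the RNA of CD8 T cells. Cd8a, a chain of the co-receptor, read 11.21, 11.29 and 11.18 (log2 intensity) in control arrays 1, 2 and 3 and 11.12, 11.08 and 10.98 in linoleic acid arrays 1, 2 and 3, and the mean of 6 CD8 T cell markers was 10.49, 10.42 and 10.34 in control and 10.44, 10.27 and 10.15 in treated arrays. Cd4 read 5.32, 6.48 and 6.32 in control and 5.12, 6.15 and 6.01 in treated arrays. RNA of B cells was present in all 6 arrays and followed the number. The mean of 14 B cell markers was 6.27, 7.55 and 7.70 in control arrays 1, 2 and 3 and 6.28, 7.70 and 7.80 in linoleic acid arrays, and Cd79a, a chain of the B cell receptor complex, read 8.10, 9.83 and 9.93 against 8.19, 10.10 and 10.26. The mean of 18 myeloid markers was 5.17, 5.70 and 5.75 in control and 5.18, 5.91 and 5.95 in treated arrays. In bulk RNA fewer cells of a kind and less RNA per cell cannot be told apart.

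Linoleic acid replicate 3 stood apart. Correlations between the 6 arrays ran from 0.949 to 0.99, and on the first principal component of these arrays, with 56.4% of their variance, it scored 37.9 where the other 5 lay between -20.6 and 7.9. Olfactory, vomeronasal and taste receptor genes have no known bulk use in T cells and were taken as a measure of background signal. Their mean over 1443 genes was 3.04, 3.15 and 3.33 in control arrays 1, 2 and 3 and 3.15, 3.40 and 3.46 in treated arrays, higher in the treated array of each number. Where leaving out linoleic acid replicate 3 moved a list's median or a larger named difference by over 1.5 times, the value without it stands beside the full one.

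**Figure D1:**
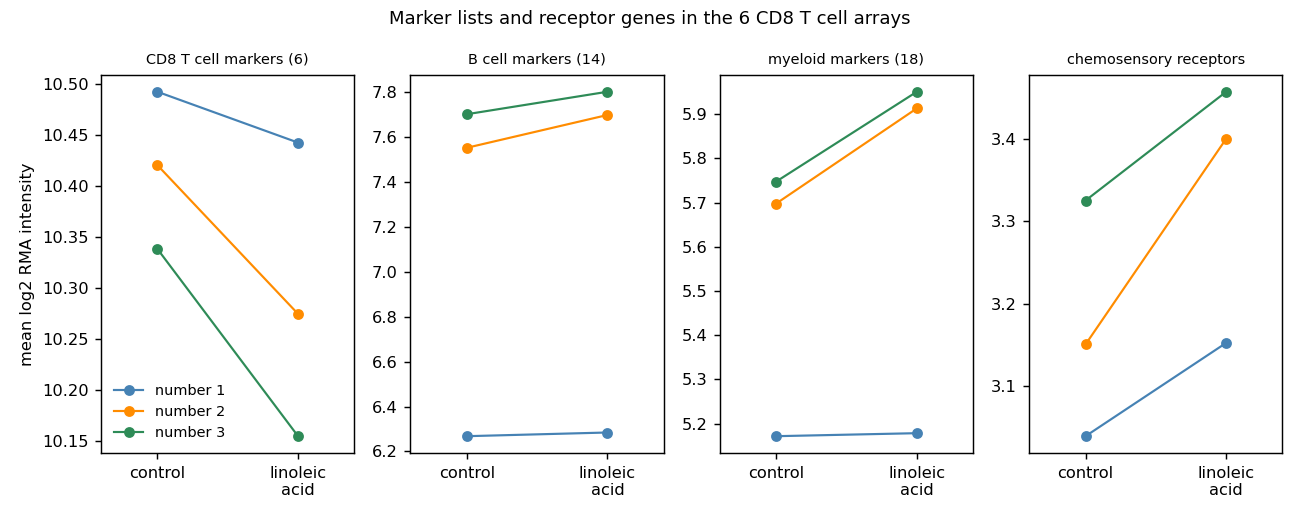
Mean log2 RMA intensity (y axis, a separate range in each panel) of CD8 T cell, B cell and myeloid marker lists and of chemosensory receptor genes in the 3 control and 3 linoleic acid CD8 arrays, with a line joining arrays of the same number. B cell and myeloid means part number 1 from numbers 2 and 3 (B cell 6.27 against 7.55 and 7.70 in control), and the receptor genes lie higher in the treated array of every number.

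Across the genome the difference was small against its error. Of 14323 genes tested, 0 passed an adjusted p of 0.05 in limma without a block (0%), and 728 (5.08%) had an unadjusted p under 0.05, 338 higher (2.36%) and 390 lower (2.72%) in linoleic acid culture. With each array centred on its median 25.0% of the genes with an unadjusted p under 0.05 were higher, against 46.4% in the values as deposited. The median standard error of a difference was 0.15 on the log2 scale, and the median size of a difference was 0.13. Only 9 genes (0.0628%) differed 2-fold or more. Treated and control arrays did not overlap for 1291 genes (9.01%), 475 on the higher side (3.32%) and 816 on the lower side (5.7%). Without linoleic acid replicate 3 the 728 became 322 (2.25%), without control replicate 2 they became 375, and without linoleic acid replicate 1 they became 2545.

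Taking the number as a block, limma passed 1 gene (0.00698%). This was 1700091H14Rik, a predicted transcript with no described role here. It read 5.42, 6.31 and 7.27 in control arrays 1, 2 and 3 and 6.73, 7.56 and 8.23 in linoleic acid arrays. Treated and control arrays overlapped, while the differences within numbers were 1.31, 1.25 and 0.96. The gene rose 2.25-fold (log2 1.17, limma adjusted p = 0.0194 with the block and 0.757 without it). Over 20 alternatives its difference lay between 0.31 and 1.64, and it passed in 3. Without linoleic acid replicate 3 it was 0.81, with an unadjusted p of 0.179 in limma without the block. Its control levels rose with the number, as the receptor gene mean did. With the block 692 genes had an unadjusted p under 0.05 on the higher side (4.83%) and 1235 on the lower side (8.62%).

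The direction of a difference depended on how bright a gene was. Genes below the 95th percentile of the chemosensory receptors (log2 5.10), 4407 in number, had a median difference of 0.07, and the 9916 at or above it had -0.10. In 5 equal bins of the tested genes from dimmest to brightest the medians were 0.08, 0.04, -0.09, -0.15 and -0.11, and the share of genes on the higher side was 69.0%, 58.9%, 28.6%, 11.5% and 16.4%. By number the brighter genes had medians of 0.02, -0.13 and -0.19, so the shift lay in numbers 2 and 3, and without linoleic acid replicate 3 the median was -0.04. The tilt touches every gene group below, so a list is read against the -0.10 of the brighter genes as well as against 0.

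**Figure D2:**
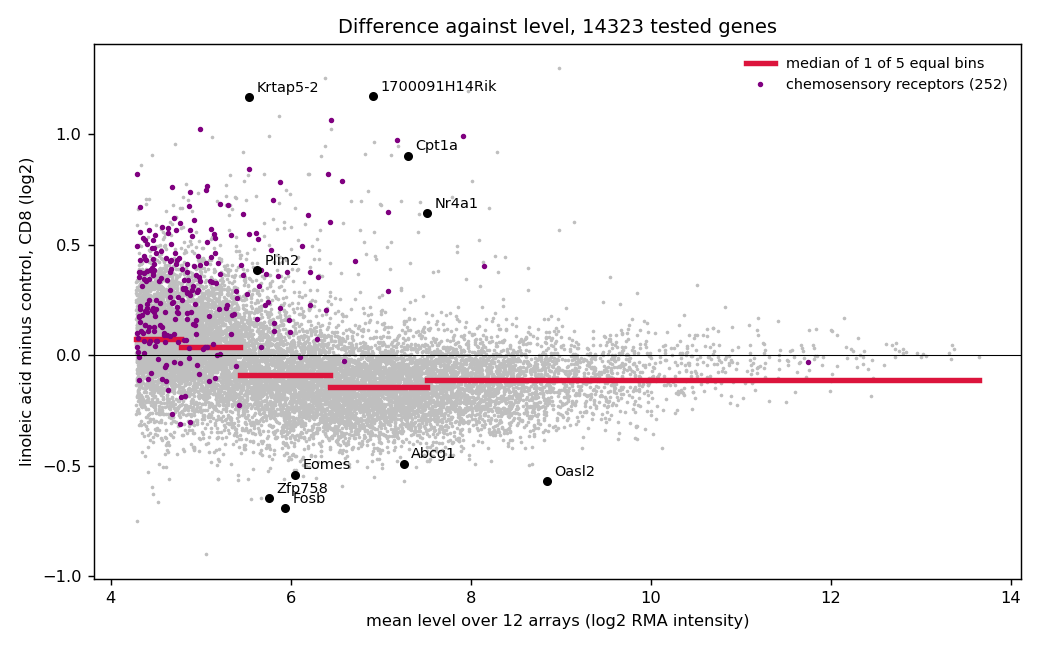
Difference between linoleic acid and control CD8 arrays (y axis, log2) against mean level over 12 arrays (x axis, log2 RMA intensity) for 14323 genes, with the median of each of 5 equal bins by level in red and 252 chemosensory receptor genes in purple. The red medians fall from 0.08 in the dimmest bin to -0.15 in the next to brightest, and Cpt1a lies at 0.90.

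Cpt1a was among the genes that stood farthest above control. It read 6.88, 6.88 and 6.69 in control arrays 1, 2 and 3 and 8.19, 7.80 and 7.17 in linoleic acid arrays. Every treated array lay above every control array, and the gap within a number was largest in number 1 (1.31), then 0.93 and 0.47. The difference was 1.87-fold (log2 0.90 ± 0.23 SE, n = 3 per group), and limma gave an adjusted p of 0.757, or 0.0507 once the number was a block. In a limma fit of the 6 CD8 arrays alone with the block the adjusted p was 0.000563. That fit had 2 residual degrees of freedom per gene and took 38.1 from the variance shared across genes. Over 20 alternatives the adjusted p in limma ranged up to 0.9997, and the gene passed in 3. Without linoleic acid replicate 3 the difference was 1.18. The exact two-sided permutation test of the 3 treated against the 3 control arrays gave p = 0.1, the smallest it can give.

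**Figure D3:**
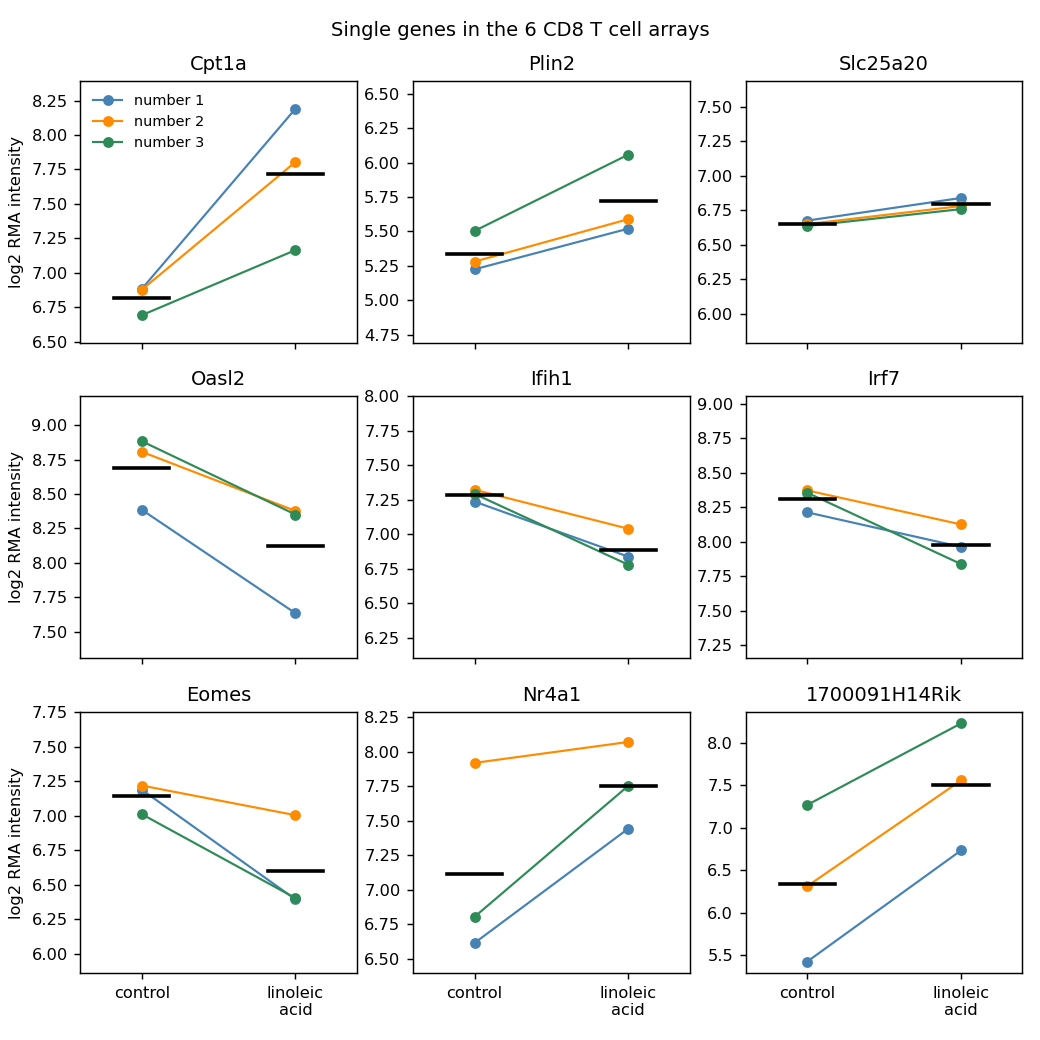
Log2 RMA intensity (y axis, separate ranges of at least 1.9 units) of 9 genes in the 3 control and 3 linoleic acid CD8 arrays, with arrays of 1 number joined and group means as black bars. Cpt1a and Plin2 lie higher and Oasl2, Ifih1, Irf7 and Eomes lower in the treated array of every number, and the groups of Nr4a1 and 1700091H14Rik overlap.

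The other carnitine shuttle genes did not share the size of that difference. Of 7 tested members 1, Cpt1a, had an unadjusted p under 0.05, where 2.36% of all genes did on the higher side. None of the 7 passed after adjustment. Slc22a5, the plasma membrane carnitine transporter, read 6.21, 5.71 and 6.21 in control and 6.47, 6.28 and 6.26 in treated arrays, a difference of 0.29 with groups that did not overlap (limma adjusted p = 0.757). Slc25a20, which exchanges acylcarnitine across the inner mitochondrial membrane, read 6.67, 6.65 and 6.64 against 6.84, 6.78 and 6.76, also without overlap, with a difference of 0.14 ± 0.11 SE. Cpt2, which hands the acyl group back to coenzyme A inside the mitochondrion, stood at -0.12, Crat, the short-chain carnitine acetyltransferase, at -0.09, Cpt1c at -0.08 and the peroxisomal Crot at 0.00. The list's median was 0.00, 0.04 without linoleic acid replicate 3, and -0.05 with arrays centred on their medians. Downstream, 5 of 19 mitochondrial beta-oxidation genes lay higher and 14 lower, where 36.9% and 63.1% of all tested genes did, with 0 at an unadjusted p under 0.05 in either direction. Their median was -0.04 (-0.02 without linoleic acid replicate 3, with 9 higher and 10 lower), and 0.03 after a second quantile normalization. The dehydrogenases Acadvl and Acadm stood at -0.00 and 0.06 and the trifunctional protein subunit Hadha at -0.02.

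PPAR receptors and targets were the lipid genes with the most members above control. Of 19 tested 12 lay higher and 7 lower, with medians of 0.09, 0.07 and 0.04 in numbers 1, 2 and 3 and 0.06 for the group difference (0.10 without linoleic acid replicate 3), which fell to 0.00 with arrays centred on their medians. Treated and control arrays did not overlap on the higher side for 7 members, against 3.32% of all genes. On the lower side they did not overlap for 1 member, against 5.7% of all genes. Plin2, which coats lipid droplets, read 5.23, 5.28 and 5.50 in control and 5.52, 5.59 and 6.06 in treated arrays. Each treated array lay above all controls by a small margin, and the difference was 0.39 ± 0.15 SE (limma, unadjusted p = 0.0213 and adjusted p = 0.757). Without linoleic acid replicate 3 it was 0.22, with an unadjusted p of 0.115 in limma. Pdk4, a kinase that shuts pyruvate out of the citrate cycle, read 4.57, 4.43 and 4.42 against 4.65, 4.72 and 5.07 (0.34, and 0.21 without replicate 3). Angptl4, a secreted inhibitor of lipoprotein lipase, stood at 0.19, the hormone gene Fgf21 at 0.37 and the lipid droplet gene Cidec at 0.33, each without overlap. Pdk4, Angptl4, Fgf21 and Cidec were dimmer than log2 5.10, the receptor gene mark. The 252 receptor genes tested had a median difference of 0.29 themselves. They are those of the 1443 that passed the filter on low values, whose mean includes the treated arrays. On the lower side Ppargc1b, a coactivator that drives mitochondrial genes, read 6.04, 6.04 and 5.80 in control and 5.71, 5.61 and 5.28 in treated arrays (-0.43 ± 0.13 SE, limma adjusted p = 0.757). The receptor gene Ppard stood at 0.01 (0.23 without replicate 3), with differences of 0.58, -0.08 and -0.45 by number, and Ppara and Pparg were below the filter on low values.

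Genes that make sterols and fatty acids lay lower in numbers 2 and 3 and not in number 1. Genes at or above the receptor level as a whole lay the same way, with medians of 0.02, -0.13 and -0.19 by number. Their median group difference was -0.10, and -0.04 without linoleic acid replicate 3. Of 19 sterol synthesis and SREBP2 target genes 2 lay higher and 17 lower, with medians of 0.03, -0.29 and -0.16 by number and -0.15 for the group difference (-0.11 without linoleic acid replicate 3). With an unadjusted p under 0.05 there were 2 lower, against 2.72% of all genes, namely Pmvk at -0.28 and Dhcr7 at -0.35, both enzymes of cholesterol synthesis. Dhcr7 stood at -0.22 without linoleic acid replicate 3, with an unadjusted p of 0.187 in limma. Pmvk read 6.61, 6.54 and 6.43 in control and 6.33, 6.22 and 6.18 in treated arrays. Srebf2, the transcription factor of the pathway, read 8.86, 8.77 and 8.63 against 8.82, 8.49 and 7.70, a difference of -0.42 that became -0.10 without replicate 3. Of 13 fatty acid synthesis and SREBP1 target genes 11 lay lower, with a median of -0.13 and of -0.03 without replicate 3. Fasn, the fatty acid synthase, stood at -0.34 with replicate 3 and -0.03 without it, and the desaturase Fads1 at -0.43 and -0.01. LXR receptors and targets, the sterol efflux genes, had 8 of 10 lower and a median of -0.18 (-0.07 without replicate 3). Abcg1, a sterol exporter, read 7.44, 7.57 and 7.38 in control and 7.47, 7.07 and 6.38 in treated arrays, level in number 1 and lowest in replicate 3 (-0.49, and -0.20 without it).

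Interferon-stimulated genes lay mostly lower in the treated arrays of all 3 numbers. Of 32 tested members 28 lay lower and 4 higher, with medians of -0.17, -0.18 and -0.19 in numbers 1, 2 and 3. Genes at or above the receptor level, as all but 1 of the 32 were, had medians of 0.02, -0.13 and -0.19. The list parted from these genes mainly in number 1. Their median group difference was -0.10, and -0.04 without linoleic acid replicate 3. The list's median group difference was -0.21, it was -0.24 without linoleic acid replicate 3, and it lay between -0.27 and -0.13 over 20 alternatives. With all 6 arrays this was the lowest median of the 33 pathway lists. Without linoleic acid replicate 1 it was -0.13, and T cell receptor signalling (-0.29) and mitochondrial ribosomal genes (-0.22) were among the lists below it, and without control replicate 2 (-0.17) or control replicate 3 (-0.15) it was not the lowest either. Of the 32, 17 were lower in every number, against 21.5% of all genes, and 1 was higher in every number, against 10.3%. There were 7 with an unadjusted p under 0.05, all lower (2.72% of all genes), and 10 with the block, all lower (8.62%). None of the 32 passed after adjustment in limma.

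Oasl2, of the oligoadenylate synthetase family, differed most. It read 8.39, 8.81 and 8.88 in control arrays 1, 2 and 3 and 7.63, 8.38 and 8.35 in linoleic acid arrays. No treated array reached any control array, and the difference was 1.49-fold (-0.57 ± 0.22 SE, limma adjusted p = 0.757 without and 0.203 with the block). Ifih1, the sensor of long double-stranded RNA also called MDA5, read 7.24, 7.32 and 7.29 in control and 6.84, 7.04 and 6.78 in treated arrays (-0.40, adjusted p = 0.757 in limma). The control arrays of Ifih1 lay within a range narrower than the gap to any treated array. Irf7, a transcription factor that amplifies interferon production, read 8.21, 8.37 and 8.35 against 7.96, 8.12 and 7.84 (-0.34). Stat2, a subunit of the factor that type I interferon receptors activate, read 8.09, 8.17 and 8.13 in control and 7.74, 8.03 and 7.36 in treated arrays (-0.42, and -0.25 without replicate 3). Oas3, another oligoadenylate synthetase, read 6.98, 7.12 and 7.14 against 6.66, 6.92 and 6.41 (-0.42). Groups overlapped for Cmpk2 (-0.45), a mitochondrial nucleotide kinase, and Rsad2 (-0.41), the antiviral viperin, although both were lower in every number. Members on the other side were the chemokine gene Cxcl10, at 0.80, -0.46 and 0.94 by number, and Ifit3 at 0.25 (0.17 without replicate 3), while Ifit3b, its near-identical copy, stood at -0.32, so reads of the pair by shared probes are uncertain. Oas1b, outside the list, read 7.58, 7.07 and 7.31 in control and 7.01, 6.84 and 6.58 in treated arrays (-0.51). Mx1, Mx2 and Oas1g were below the filter on low values.

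**Figure D4:**
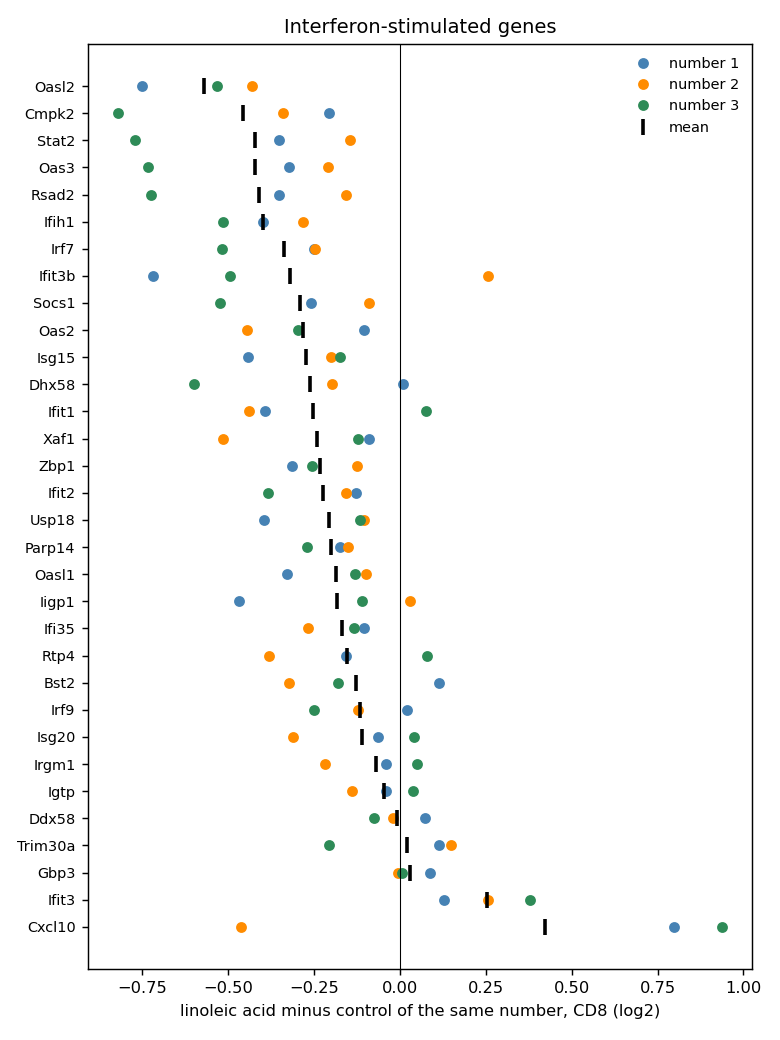
Difference between the linoleic acid and control CD8 array of the same number (x axis, log2) for the 32 tested interferon-stimulated genes (y axis, sorted by the mean of the 3, black bar). In 17 genes all 3 points lie left of 0, with Oasl2 lowest, and Cxcl10 spans from -0.46 to 0.94.

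The interferon-stimulated response element was searched as GAAANNGAAA on both strands in windows from 250 bases before to 50 bases after a gene's start (RefSeq, GRCm38.p6). Windows were found for 25 of the 32 members and 16 held a match (64.0%), where 407 of 11169 tested genes with a window did (3.64%) and 3.44% of all 32851 windows. Within the list the median difference was -0.19 for the 16 with a match, of which 12 were lower, and -0.22 for the 9 without one, all lower, so a match in the window did not mark the members with the larger difference. A match is a description of the sequence and shows no binding. The 4 members with the smallest unadjusted p whose match lies before the start are printed as the 250 bases before it, in the gene's own direction, with the match in capitals. Oas3 lies on chr5:120777660-120777909 (minus strand), Stat2 on chr10:128270248-128270497 (plus), Rsad2 on chr12:26456453-26456702 (minus) and Socs1, a brake on interferon signalling, on chr16:10785537-10785786 (minus).
Oas3: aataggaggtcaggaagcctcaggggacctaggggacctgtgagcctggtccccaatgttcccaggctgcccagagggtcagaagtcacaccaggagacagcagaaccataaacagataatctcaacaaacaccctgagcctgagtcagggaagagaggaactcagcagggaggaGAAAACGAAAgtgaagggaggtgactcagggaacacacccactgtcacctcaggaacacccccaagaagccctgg
Stat2: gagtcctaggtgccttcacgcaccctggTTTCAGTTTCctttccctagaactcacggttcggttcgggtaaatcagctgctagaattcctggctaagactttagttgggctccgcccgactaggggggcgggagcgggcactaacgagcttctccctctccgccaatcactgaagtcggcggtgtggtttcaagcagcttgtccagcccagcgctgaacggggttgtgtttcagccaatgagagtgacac
Rsad2: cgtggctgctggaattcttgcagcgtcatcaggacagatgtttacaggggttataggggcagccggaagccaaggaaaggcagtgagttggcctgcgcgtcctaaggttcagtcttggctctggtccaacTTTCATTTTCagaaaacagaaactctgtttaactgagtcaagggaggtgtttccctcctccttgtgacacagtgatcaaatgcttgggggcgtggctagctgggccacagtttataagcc
Socs1: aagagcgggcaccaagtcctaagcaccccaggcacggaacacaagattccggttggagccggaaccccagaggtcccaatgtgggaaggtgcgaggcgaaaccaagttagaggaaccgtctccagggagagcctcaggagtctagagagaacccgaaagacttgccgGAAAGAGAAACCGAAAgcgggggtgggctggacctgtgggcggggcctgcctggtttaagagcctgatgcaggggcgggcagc
The matches begin 75, 222, 120 and 83 bases before the start in Oas3, Stat2, Rsad2 and Socs1, and Socs1 holds 2 overlapping ones. In the same windows 1 of 15 sterol genes held the sterol regulatory element TCACNCCAC (1.49% of tested genes), and 0 of 15 PPAR genes held an exact AGGTCANAGGTCA repeat (0.054% of tested genes).

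Mitochondrial ribosome and respiratory chain genes lay lower by small steps in numbers 2 and 3 and not in number 1. Of 69 mitochondrial ribosomal protein genes 64 lay lower, with medians of 0.06, -0.29 and -0.25 by number and -0.16 for the group difference, and 6 had an unadjusted p under 0.05, all lower, against 2.72% of all genes. Without linoleic acid replicate 3 the median was -0.11. Mrpl20 of the large subunit read 5.43, 5.69 and 5.41 in control and 5.30, 5.10 and 4.65 in treated arrays (-0.49), and Mrpl23 read 6.84, 6.77 and 6.91 against 6.58, 6.38 and 6.46 (-0.37), with no overlap in either. Complex I, the entry of electrons from NADH, had 28 of 32 subunits lower (median -0.13), with Ndufc1 at -0.37. Complexes II to IV and ATP synthase had 33 of 40 lower (median -0.13), with the Rieske protein gene Uqcrfs1 at -0.26. These medians lay within 0.06 of the -0.10 shared by the brighter genes, and in number 1 those of the 2 respiratory lists were 0.02 and 0.01. Cytoplasmic ribosomal protein genes had 41 of 58 lower with a median of -0.02 (-0.06 without linoleic acid replicate 3), and proteasome subunits 29 of 34 with a median of -0.07, which turned to 0.01 after a second quantile normalization. Of 17 glycolysis genes 14 lay lower (median -0.11, and -0.06 without replicate 3), where Pgam1, the phosphoglycerate mutase, read 6.99, 6.98 and 7.13 in control and 6.67, 6.87 and 6.31 in treated arrays (-0.42, and -0.26 without replicate 3).

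**Figure D5:**
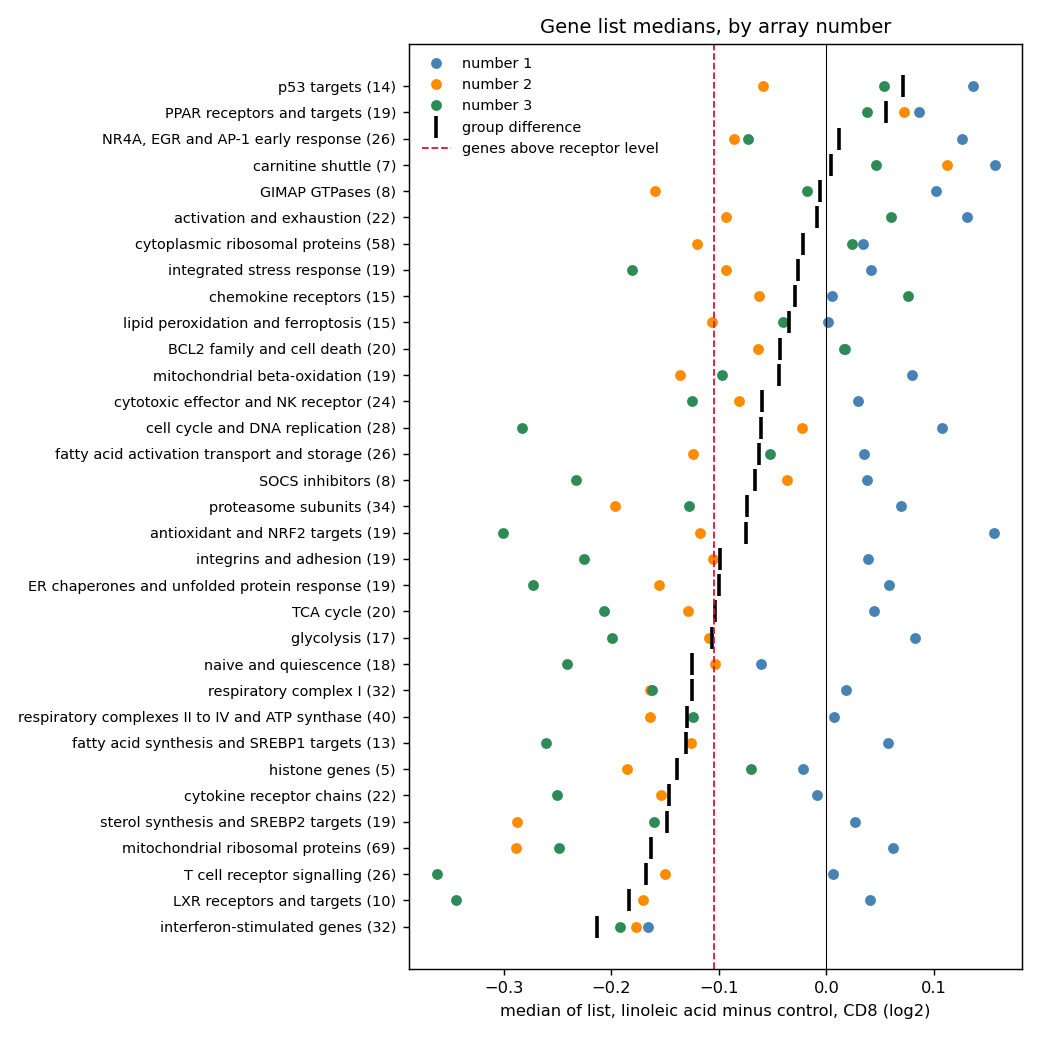
Median difference of each pathway list with 5 or more tested members (x axis, log2, linoleic acid minus control; number of members in brackets), by array number in colour and for the group difference as a black bar, with a dashed line at the -0.10 of genes at or above the receptor level. Interferon-stimulated genes have the lowest black bar and lie close together by number (-0.17, -0.18 and -0.19), whereas in most other lists number 1 lies at or above 0 and number 3 to the left.

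T cell receptor signalling genes lay lower mainly through replicate 3. Of 26 tested 24 lay lower, with medians of 0.01, -0.15 and -0.36 by number, -0.17 for the group difference and -0.04 without linoleic acid replicate 3. Of the 26, 1 had an unadjusted p under 0.05, where 2.72% of all genes did on the lower side. This was Vav1, an exchange factor downstream of the receptor, which read 8.61, 8.58 and 8.55 in control and 8.46, 8.37 and 8.13 in treated arrays (-0.26, and -0.17 without replicate 3). Csk, the kinase that restrains Lck, stood at -0.31 (-0.16 without replicate 3) and Plcg1, the phospholipase of the pathway, at -0.35 (-0.11 without replicate 3). Cytokine receptor chains had 20 of 22 lower (median -0.15, and -0.04 without replicate 3). Il12rb2, the inducible chain of the interleukin-12 receptor, read 6.60, 7.49 and 7.22 against 6.26, 6.87 and 6.72, lower by 0.34, 0.62 and 0.51 within numbers although the groups overlapped (-0.49, and -0.54 without replicate 3). Of 18 naive and quiescence genes 15 lay lower, with medians of -0.06, -0.10 and -0.24 by number, -0.12 for the group difference and -0.04 without replicate 3. Tob1, an antiproliferative gene of resting T cells, read 7.25, 7.24 and 7.11 in control and 7.19, 6.65 and 6.07 in treated arrays (-0.57, and -0.28 without replicate 3). Foxo1, a transcription factor of quiescence, stood at -0.34 (-0.05 without replicate 3), Ccr7, the lymph node homing receptor, at -0.07 and Il7r, the interleukin-7 receptor chain, at -0.06. With the receptor gene mean as a covariate the medians of the T cell receptor and the naive list were 0.01 and 0.02.

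Immediate early genes parted among themselves. Of 26 tested 13 lay higher and 13 lower (median 0.01), and without linoleic acid replicate 3 it was 20 higher and 6 lower (median 0.12). Nr4a1, an orphan nuclear receptor induced by antigen receptor signals, read 6.61, 7.92 and 6.80 in control and 7.44, 8.07 and 7.75 in treated arrays. Control array 2 was already high, and the differences were 0.83, 0.15 and 0.95 (mean 0.64, limma adjusted p = 0.757). Dusp5, a phosphatase that restrains ERK, had the same shape, with 6.52, 7.46 and 6.66 against 7.43, 7.60 and 7.30 (0.56). Fosb, a subunit of AP-1, went the other way, from 7.09, 6.34 and 5.87 to 6.09, 5.88 and 5.26 (-0.69, limma adjusted p = 0.757 without and 0.1 with the block), and stood at -0.45 without replicate 3. Myc stood at -0.13 and Cd69, an early activation marker, at 0.32 with differences of 0.46, -0.23 and 0.72.

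Cytotoxic effector genes showed no common direction beyond that of all genes, with 7 of 24 higher, 17 lower and a median of -0.06, which was -0.01 without linoleic acid replicate 3 (11 higher and 13 lower) and 0.00 after a second quantile normalization. Of the 24, 1 had an unadjusted p under 0.05, where 2.72% of all genes did on the lower side. This was Eomes, a T-box factor of effector and memory CD8 T cells. It read 7.19, 7.22 and 7.01 in control and 6.39, 7.00 and 6.40 in treated arrays. The groups did not overlap, and the treated array 2 lay closest to control (-0.54 ± 0.20 SE, 1.45-fold lower, limma adjusted p = 0.757). Tbx21, its relative, stood at -0.01. Prf1, which encodes perforin, read 8.03, 8.09 and 8.14 against 8.13, 8.24 and 7.76 (-0.04, and 0.10 without replicate 3). Gzmb, the granzyme B gene, varied more between numbers than between cultures, with 7.13, 8.45 and 8.86 against 7.26, 8.11 and 8.20 (-0.29, and -0.46 without replicate 3), and the interferon gamma gene Ifng stood at -0.16 (-0.38 without it).

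Stress and survival genes gave little. Of 20 BCL2 family and cell death genes 8 lay higher and 12 lower. The 1 with an unadjusted p under 0.05 was on the higher side, where 2.36% of all genes had one. This was Bcl2a1a at 0.38, a survival member of a family of near-identical copies and so uncertain. Bcl2 itself read 8.83, 9.22 and 8.85 in control and 8.57, 8.94 and 8.36 in treated arrays (-0.35, and -0.22 without linoleic acid replicate 3), lower in every number. The death gene Bcl2l11, or BIM, stood at -0.42 and at -0.04 without linoleic acid replicate 3. The integrated stress response list had 8 of 19 higher and 11 lower (Atf4 -0.02, Ddit3 0.02), the antioxidant and NRF2 list 4 higher and 15 lower of 19 (Hmox1 0.12), and the lipid peroxide defence gene Gpx4 stood at -0.03.

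The remaining lists held few genes with an unadjusted p under 0.05. Of 22 activation and exhaustion genes 10 lay higher and 12 lower (median -0.01, and 0.04 after a second quantile normalization), with the exhaustion factor relative Tox2 at 0.32 (0.21 without linoleic acid replicate 3), and with Tnf at 0.35 and differences of 0.77, -0.11 and 0.37. Cd27, a costimulatory receptor, was steady within each culture and read 10.07, 10.05 and 10.08 in control and 9.87, 9.84 and 9.81 in treated arrays (-0.23, limma adjusted p = 0.757). Of 28 cell cycle and DNA replication genes 21 lay lower (median -0.06, and -0.04 without replicate 3), with the replicative helicase subunit Mcm6 at -0.19. Of 14 p53 targets 10 lay higher (median 0.07), which without replicate 3 became 7 higher and 7 lower (median 0.02), with the death gene Pmaip1, or NOXA, at 0.27. Integrins and adhesion genes had 14 of 19 lower (median -0.10, and -0.02 with 11 lower without replicate 3), with Itgav at -0.30 (-0.17 without it). TCA cycle genes had 17 of 20 lower (median -0.10), with the citrate synthase gene Cs at -0.28, and -0.06 without linoleic acid replicate 3. GIMAP GTPases, lymphocyte survival genes, had 4 of 8 lower, or 6 without replicate 3 (median -0.01, and 0.04 after a second quantile normalization). SOCS inhibitors of cytokine signalling had 6 of 8 lower (median -0.07, and -0.03 with 4 lower without replicate 3), with Socs2 at -0.37 (-0.22 without it) and lower in every number. Fatty acid activation, transport and storage genes had 17 of 26 lower (median -0.06, and -0.02 without replicate 3), with the acyl-CoA synthetase gene Acsl6 at 0.24 and the fatty acid transporter gene Slc27a1 at -0.30 (-0.16 without it).

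Of the 9916 genes at or above the receptor level, 293 had an unadjusted p under 0.05 in limma and no overlap, 59 higher and 234 lower. Of all 14323 genes tested, 5.08% had such a p and 9.01% had no overlap, each counted alone. The median difference of all 9916 was -0.10, on the lower side as well. The 12 named with the largest positive differences ran from Krtap5-2, a keratin-associated protein gene, at 1.17 to Dnaic1, an axonemal dynein gene, at 0.44. Krtap5-2 read 4.39, 5.01 and 5.44 in control and 5.54, 6.17 and 6.63 in treated arrays, with differences of 1.15, 1.16 and 1.19. Its control levels rose with the number, as the receptor gene mean did. Without linoleic acid replicate 3 it stood at 0.91, with an unadjusted p of 0.108 in limma without the block. Ackr2, a decoy receptor that scavenges chemokines, read 5.42, 5.42 and 5.35 against 5.79, 5.87 and 6.15 (0.54 ± 0.12 SE), the ubiquitin ligase gene Trim17 read 4.82, 5.17 and 5.15 against 5.58, 5.44 and 5.82 (0.57), and Fcgr3, an Fc receptor gene of myeloid and NK cells, read 5.27, 5.43 and 5.26 against 5.58, 5.97 and 5.85 (0.48). The others were Cpt1a, Lce3c (0.70), Lamtor3-ps (0.66), C2cd4a (0.54, and 0.32 without linoleic acid replicate 3), Qrfprl (0.54), C86187 (0.49) and Fgf1 (0.45). The myeloid marker list, which holds Fcgr3, lay higher for 14 of 16 members (median 0.10, and -0.02 without linoleic acid replicate 3), and its part in the Fcgr3 difference was not tested.

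On the lower side the 12 ran from Zfp758, a zinc finger gene, at -0.65 to Glrx5, a mitochondrial iron-sulfur glutaredoxin gene, at -0.48. Zfp758 read 5.94, 6.13 and 5.98 in control and 5.32, 5.23 and 5.55 in treated arrays (-0.65 ± 0.19 SE). Smpd2, a neutral sphingomyelinase gene, read 6.32, 6.57 and 6.58 against 6.14, 5.98 and 5.83 (-0.51), and Mterf2, a mitochondrial transcription termination factor gene, read 5.48, 5.40 and 5.36 against 5.06, 4.41 and 5.11 (-0.56). Pgp, a phosphoglycolate phosphatase gene, stood at -0.56 and at -0.36 without linoleic acid replicate 3, Nfatc2ip at -0.50 and -0.21, Glrx5 at -0.48 and -0.24, and Mrpl20 at -0.49 and -0.31. The rest were Oasl2, Eomes, Oas1b, Ccdc126 (-0.55) and Rsph3b (-0.51). All 24 named genes, higher and lower, had an adjusted p of 0.757 in limma without the block.

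Fitting the 6 CD8 arrays alone with the number as a block gave a longer list, in which limma passed 99 genes (0.691%), 92 that rose (0.642%) and 7 that fell (0.0489%). It rests on 2 residual degrees of freedom per gene, with the variance shared across genes supplying the rest. Genes that T cells are not known to use made up much of it. Of 252 chemosensory receptors tested 22 passed (8.73%), all higher, and of 1267 predicted or clone-named genes 35 (2.76%), against 36 of 12562 other named genes (0.287%), with 6 small RNAs making up the 99. The named ones included Speer4 genes of the testis and defensin genes of the gut (Defa21 and Defa22), together with Cpt1a, Nr4a1, Fosb, Zfp758, Lce3c and Krtap5-2. Treated and control arrays did not overlap for 22 of the 99, against 9.01% of all genes tested. In 69 the control levels stood in the order of number 1, 2 and 3, as they did for 16.6% of tested genes and as the receptor gene mean did. Of the 252 receptors 225 lay higher in treated arrays, with medians of 0.10, 0.39 and 0.35 by number, and the part of background signal in the 99 was not tested.

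Set beside CD4 T cells, no gene gave a different response after adjustment. The difference between the 2 effects passed in 0 of 14323 genes in limma (0%) without and with the block, and 336 (2.35%) had an unadjusted p under 0.05. Cpt1a differed by 1.34 in CD4 and 0.90 in CD8 T cells (difference 0.43 ± 0.33 SE, limma adjusted p = 0.953). Eomes stood at 0.08 in CD4 and -0.54 in CD8 T cells (difference 0.62 ± 0.28 SE, limma adjusted p = 0.953) and Ifih1 at 0.02 and -0.40 (difference 0.42 ± 0.17 SE, limma adjusted p = 0.953). Nr4a1 differed by 0.71 and 0.64. The interferon list had a median of -0.16 in CD4 and -0.21 in CD8 T cells.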

How the data were processed

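Log2 intensities of 41345 probe sets on 12 arrays were used as the authors deposited them. RMA, named in the submitters' processing notes, subtracts background, forces 1 distribution on the arrays by quantile normalization and merges the probes of each set, so a shift shared by all genes is partly removed. The RMA version is not given in the sources used here, nor is a build. Of the probe sets 23521 carried 1 gene symbol, 1814 several and 16010 none. The probe set with the highest mean stood for each of 22180 genes, and 14323 with a mean of at least log2 4.28, the 40th percentile, were tested. Group means over all 12 arrays, CD4 included for the spread, were compared in limma 3.58.1 (R 4.3.3, lmFit and eBayes, two-sided) with Benjamini-Hochberg adjustment. Precision is limited by 3 arrays per group.

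Across genes, the departures from the group mean of 2 arrays with 1 number correlated at 0.43, 0.19 and 0.42. These were above 0.1 in each, so the numbers were taken as pairs. Other matchings were not compared by this measure, so it cannot show that this one is right. In plain levels, linoleic acid arrays 1 and 3 correlated most with the control array of their number (0.99 and 0.9735). Linoleic acid array 2 correlated more with control array 3 (0.988) than with control array 2 (0.9863). The pairing comes from the data, not the labels. The 43 gene lists (33 pathway and 10 marker lists, 760 tested genes), the members and the naming rule were chosen with earlier results of these data known. Named were Cpt1a, genes past an adjusted p of 0.05 with or without the block, the 12 largest differences each way among genes with an unadjusted p under 0.05, no overlap and a mean at or above the receptor level, the list members with the smallest p, and core members of each list. Not every list member that the rule covers is printed, among them Msmo1, Hmgcs1, Sqle, Insig1 and Isg15. Members outside the rule (Stat2, Rsad2, Socs1, Cxcl10, Ifit3, Ifit3b, Cidec and the families of the paired list) were named after their values were seen. Predicted genes and chemosensory receptors were counted. The fit was tested on simulated data with independent noise in every gene and array. The simulation held no effect of number, level or a single array, so it cannot show how the fit handles those. Alternatives changed the block, arrays, filter, scaling, probe set rule, variance model and left out each array. Promoter windows came from RefSeq.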

Additional observations from a re-analysis of the deposited data

Results flagged for a closer look

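Both lists here were picked out because every number lay on 1 side of 0 in CD8 T cells and on the other side in CD4 T cells. The difference between the cell types was not tested for either.

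PPAR receptors and targets had a median difference of 0.0553 in CD8 T cells, with 0.09, 0.07 and 0.04 in numbers 1, 2 and 3. In CD4 T cells the medians were -0.01, -0.02 and -0.00. The CD8 median of this list fell to 0.00 with arrays centred on their medians. Naive and quiescence genes had a median of -0.1247 in CD8 T cells, with -0.06, -0.10 and -0.24 by number, against 0.08, 0.17 and 0.13 in CD4 T cells. Genes at or above the receptor level as a whole had medians of -0.10 in CD8 and -0.01 in CD4 T cells. Leaving out CD8 linoleic acid replicate 3 brought the naive median to -0.04, and that of the genes at or above the receptor level to -0.04.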

How the results depend on the processing

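The count of genes past an adjusted p of 0.05 in CD8 T cells was 0 in 14 of 20 alternatives, among them leaving out each CD8 array in turn. It was 1 with the replicate number as a block, 6 and 2 when that block fit left out number 1 or number 2, and 99 in the CD8 arrays alone with the replicate block. Array weights gave 213 (110 higher and 103 lower), in a weight fit that did not fully converge, with a weight of 0.286 for linoleic acid replicate 3 and 4.91 for replicate 2. With the receptor gene mean as a covariate, an alternative chosen after seeing the data, it was 1, which was Cpt1a at 1.21 (limma adjusted p = 0.0129). The cause of these moves was not tested. The difference between the CD4 and CD8 effects gave 0 in every alternative run. The Cpt1a difference kept its sign and lay between 0.67 and 1.21. The interferon list kept its sign in all 20 alternatives, and the B cell marker median lay between -0.77 and 0.59. No called value changed sign. Over single genes, lists and other counts, 5241 values under an alternative were the same by their test or spread, 145 moved and 24 newly passed the threshold. Signal near that of receptor genes limits what can be read below log2 5.10.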
